A study of Mus musculus with 6 samples.

Results

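Nearly every nucleated cell shows fragments of its own proteins to T cells on class I molecules of the major histocompatibility complex (MHC). The proteasome cuts the proteins, the TAP transporter carries the peptides into the endoplasmic reticulum, and tapasin helps to load them onto a heavy chain paired with β2-microglobulin. Interferons raise the transcription of these genes and of the immunoproteasome, in which inducible catalytic subunits take the places of the constitutive ones, and NLRC5 is the transactivator of class I genes. The genes described here are 10 members of this pathway, chosen by name: the heavy chains *H2-K1* and *H2-D1*, the light chain *B2m*, the loading genes *Tap1*, *Tap2* and *Tapbp*, the transactivator *Nlrc5*, and the immunoproteasome subunits *Psmb8*, *Psmb9* and *Psmb10*. All 10 were on the array, of 37074 gene names in all, with 17 of its 56605 probes.

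They were measured in LSK cells, the bone marrow fraction without lineage markers but with Sca-1 and c-Kit, which holds haematopoietic stem cells and early progenitors, sorted from mice at P6 to P8. The control mice were Atg5w/w;VaviCre+ and the others Atg5f/f;VaviCre+ (Atg5f/f;Vav below), with 3 samples and 3 arrays in each group, so that both groups carried the Cre transgene, and both were on a C57BL/6 background. Vav-Cre is active in blood cells from fetal stages on, and Atg5, an autophagy protein, is to be lost in the whole haematopoietic system and not in LSK cells alone. How many mice went into a sample is given neither by the labels nor by the methods. Errors and n are therefore over arrays, and p-values measure the spread between these samples, which may be partly technical. RNA was labelled with Cy3 on 1-colour Agilent arrays. Each value is the log2 of a probe's intensity minus the array's 75th percentile, so a value describes 1 probe and is not compared with the level of another.

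Between 51.6% and 58.2% of probes were well above background on an array. All arrays shared 1 slide and 1 scan, and since the controls filled row 1 and the others row 2, the row and the genotype cannot be told apart. The only *Atg5* probe (chr10:44083997-44084056 of mm9, + strand, from base 2251 of the transcript) read 1.10, 0.93 and 1.06 in control and 1.46, 1.51 and 1.74 in Atg5f/f;Vav, higher in the latter by 0.54 ± 0.12 (SE, limma adjusted p = 0.0209). Whether it falls inside the deleted segment was not determined, so it does not check the genotype, and groups are named as their labels name them. The gate's own markers *Kit*, *Cd34*, *Flt3* and *Ly6a* (which encodes Sca-1) were well above background on all 6 arrays. *Ly6a* itself was higher in Atg5f/f;Vav by 1.57 ± 0.15 (SE, limma adjusted p = 0.00623). *Kit* was at -0.38, *Flt3* at -0.87 and *Cd34* at -0.27, none past the threshold (limma adjusted p = 0.0563, 0.0675 and 0.36). For *Kit* and *Flt3* the Atg5f/f;Vav arrays all lay below control, and each passed under 3 of 6 scalings, though *Kit* was at 0.17 with arrays centred on spike-in transcripts. The part of these differences in the results was not tested.

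Promoter sequences are shown first because class I genes and *B2m* are known to share control elements: a κB site and an interferon response element that IRF factors bind, followed by a module whose X2 part resembles a cyclic AMP response element (CRE) and whose Y box is an inverted CCAAT. NLRC5 acts through the proteins on that module. RefSeq promoter windows (GRCm38.p6, 250 bases before to 50 after an annotated start) matched 8 of the 10 members by symbol, and the first window listed for a gene was used. The stretch from the κB match to the IRF match is given below for both heavy chains and *B2m*, 5′ to 3′ on the gene's strand, with the matches in capitals.
H2-K1, chr17:34000430-34000458, - strand: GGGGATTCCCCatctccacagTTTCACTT
H2-D1, chr17:35262923-35262951, + strand: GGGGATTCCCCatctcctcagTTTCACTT
B2m, chr2:122147548-122147570, + strand: GAAACTGAAAatgGGAAAGTCCC

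In both heavy chain windows the κB match stood first, and the IRF core began 21 bases after the first base of the κB match. *B2m* held them in the opposite order, with the IRF match as a direct pair. Downstream of these, each of the 3 windows held TGACG and, after a gap of exactly 20 bases, ATTGG, an inverted CCAAT, in capitals below.
H2-K1, chr17:34000359-34000388, - strand: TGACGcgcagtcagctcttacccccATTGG
H2-D1, chr17:35262993-35263022, + strand: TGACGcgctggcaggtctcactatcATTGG
B2m, chr2:122147609-122147638, + strand: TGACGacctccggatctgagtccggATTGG

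That pair with that gap, looked for after it was seen here, was in 26 of 27025 windows of all genes (0.0962%). The motifs were searched on both strands, and the IRF core AANNGAAA, was in 3 of the 8 members' windows and in 24.2% of all windows. The IRF pair, GAAA followed after any 2 bases by GAAA, was in the *B2m* window alone among the members, where it overlaps the core, and in 3.49% of all. The κB consensus was in 3 members and in 8.18% of all windows. The CRE-like TGACG was in 5 members against 21% of all, and CCAAT was in 6 members against 37.9% of all. These member counts are not of independent windows. The *Tap1* and *Psmb9* windows share 275 of 300 bases, and their TGACG and CCAAT matches are the same sites, counted for each gene. The *H2-K1* and *H2-D1* windows had the same base at 176 of 240 aligned positions (73.3%).

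*Tap1* and *Psmb9* lie head to head, with 225 bases between their annotated starts. This stretch (chr17:34187331-34187555, GRCm38.p6) is printed on the *Tap1* strand because both genes, a transporter subunit and a proteasome subunit, share it. Its CCAAT and TGACG matches are in capitals.
Tap1 and Psmb9: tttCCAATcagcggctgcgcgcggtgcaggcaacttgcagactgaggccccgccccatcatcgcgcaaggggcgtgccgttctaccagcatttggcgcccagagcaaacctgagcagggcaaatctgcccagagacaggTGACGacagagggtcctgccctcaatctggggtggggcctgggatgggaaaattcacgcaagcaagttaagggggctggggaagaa

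*Psmb8* held the only match among the 8 to the interferon-γ activation site pattern TTCNNNGAA (GAS), found in 8.47% of all windows, at chr17:34198088-34198116 (+ strand, GRCm38.p6) within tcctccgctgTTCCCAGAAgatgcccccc. *Tapbp* held CCAAT matches and no other motif searched, and *Psmb10* held none of the 6. A match describes letters and not a bound site. The map of motif matches sets these positions side by side.

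**Figure D1:**
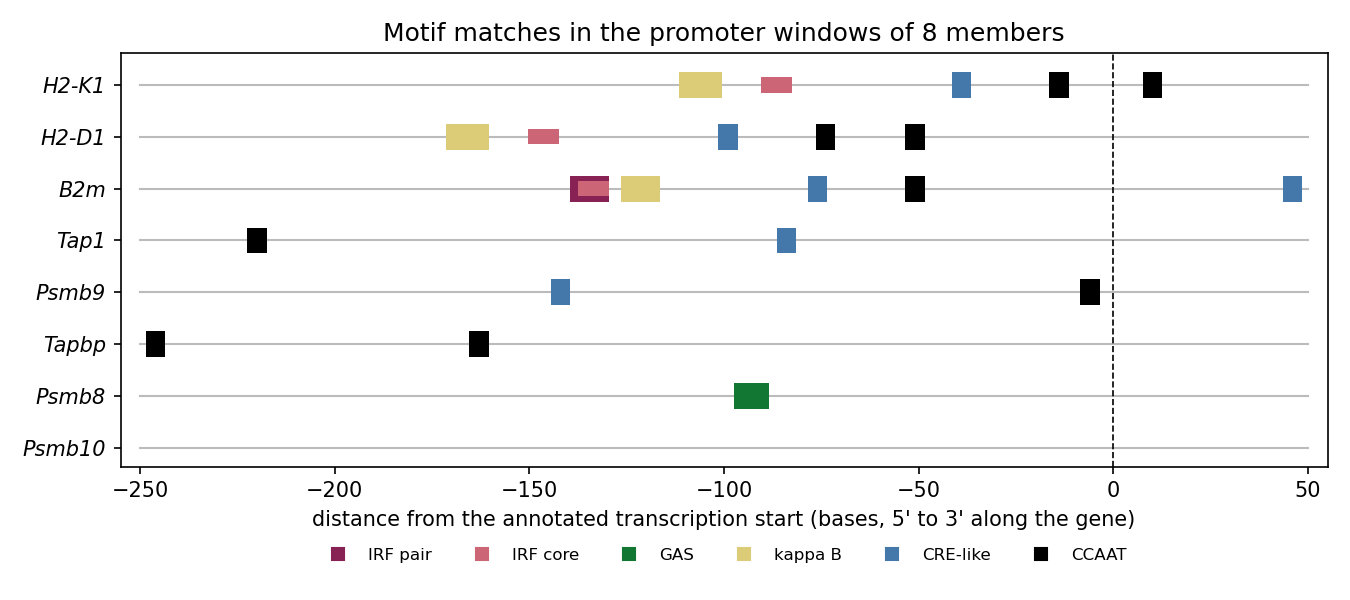
Matches to 6 motifs in the RefSeq promoter windows of 8 members (GRCm38.p6), by distance in bases from the annotated start, which is position 0; each bar is 1 match on either strand. The 3 windows of *H2-K1*, *H2-D1* and *B2m* hold κB, IRF, CRE-like and CCAAT matches together, with the CRE-like and CCAAT bars the same distance apart.

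All 10 members were higher in Atg5f/f;Vav than in control, each with the lowest Atg5f/f;Vav array above the highest control array, and all 10 passed the threshold (limma, adjusted p 0.00236 to 0.0325 over 32074 probes). Over all 15136 genes tested, 21.1% passed in that direction and 33.2% were higher without overlap. The median log2 fold change of the members was 1.40, and that of all genes 0.02. By size of rise, *Nlrc5* ranked 68th and *Tap2* 1641st of the 15136 genes, and the other 8 lay between 148th and 437th. In bulk samples of this kind, fewer cells of a type and less RNA per cell cannot be told apart.

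The counts depended on the control arrays. Without control 1, 5 of the 10 members passed and 0.707% of all genes did in that direction. Without control 2 these were 4 and 0.562%. No member changed direction with any array left out, and in these 2 fits the median rise was 1.38 and 1.36.

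The arrays kept nearly the same order from member to member, as the plot of members by array shows. Control 3 was the highest control array for all 10 members, and Atg5f/f;Vav 3 was the highest of its group for all 10. Atg5f/f;Vav 1 was the lowest of its group for 9 members. The median over the members, relative to the control mean, was 1.11, 1.29 and 1.75 on the Atg5f/f;Vav arrays and between -0.07 and 0.15 on the control arrays.

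**Figure D2:**
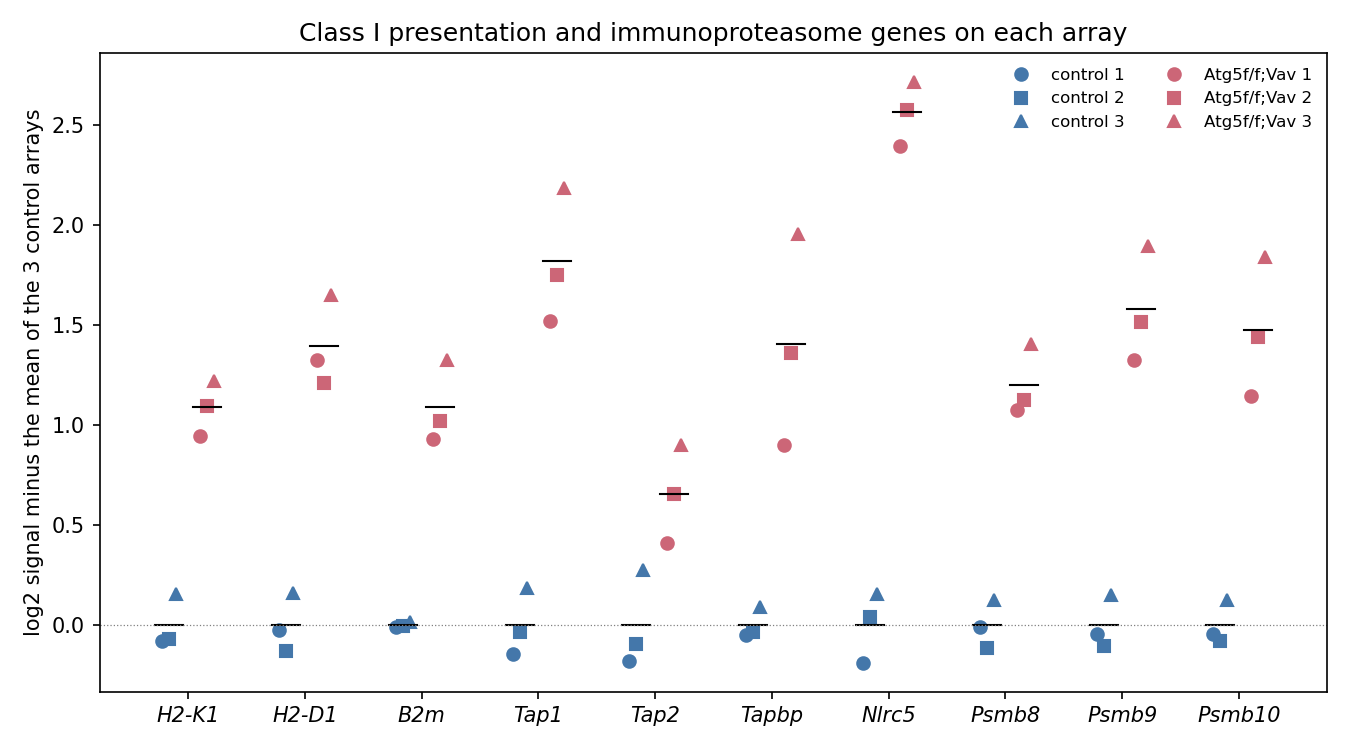
Log2 signal of each member's brightest tested probe on each array, minus the mean of the 3 control arrays for that gene; symbols mark the array number and horizontal bars the group means. The Atg5f/f;Vav arrays lie above the control arrays for every gene, with the narrowest gap for *Tap2* and the widest for *Nlrc5*.

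*Nlrc5*, the transactivator, rose the most. Its probe near the transcript's end (chr8:97051105-97051164 of mm9, + strand) read 0.34, 0.57 and 0.68 in control and 2.93, 3.11 and 3.25 in Atg5f/f;Vav. The lowest Atg5f/f;Vav array was 2.24 above the highest control array. The rise was 2.56 ± 0.14 (SE), or 5.91-fold (limma adjusted p = 0.00236). A dimmer probe that spans 147 bases of the genome, and so at least 1 splice junction (chr8:97030478-97030624), rose by 1.55 (limma adjusted p = 0.00999).

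The classical heavy chains rose together. *H2-K1* (chr17:34133055-34133114 of mm9, - strand) read 6.29, 6.30 and 6.53 in control and 7.32, 7.47 and 7.60 in Atg5f/f;Vav, a rise of 1.09 ± 0.13 (SE, 2.12-fold, limma adjusted p = 0.00922). *H2-D1* (chr17:35403886-35403945, + strand) read 4.17, 4.06 and 4.35 in control and 5.52, 5.41 and 5.85 in Atg5f/f;Vav, a rise of 1.40 ± 0.15 (SE, 2.63-fold, limma adjusted p = 0.00832). In both, the step between the groups was wider than the spread of either group.

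Heavy chain genes resemble each other, so their probes may share transcripts. A further *H2-K1* probe, and a probe that carries the name *H2-L* although the array design lists the *H2-D1* transcript for it, lie over corresponding parts of the 2 mRNAs. They are printed to show how far a 60-base probe separates the 2 genes, with the bases that differ in capitals (19 of 60).
H2-K1 probe, chr17:34133984-34134043 of mm9, - strand: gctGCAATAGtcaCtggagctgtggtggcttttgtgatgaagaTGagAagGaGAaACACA
H2-L probe, chr17:35403191-35403250 of mm9, + strand: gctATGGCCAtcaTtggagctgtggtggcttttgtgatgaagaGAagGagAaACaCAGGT

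The first read 3.77, 3.71 and 4.02 in control and 5.23, 5.24 and 5.47 in Atg5f/f;Vav, a rise of 1.48 ± 0.13 (SE, limma adjusted p = 0.00547). The second read 3.78, 3.68 and 3.93 against 5.17, 5.12 and 5.42, a rise of 1.44 ± 0.13 (SE, limma adjusted p = 0.00547). The 2 rises differed by less than either SE. Of the 34 tested probes named for class I genes, 8 list a transcript of another class I gene than the one they are named for, and heavy chains are uncertain one by one for that reason.

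*B2m*, the light chain that every class I molecule needs, was the steadiest member in control, at 5.65, 5.66 and 5.67 (chr2:121978401-121978460 of mm9, + strand). It read 6.59, 6.68 and 6.99 in Atg5f/f;Vav, a rise of 1.09 ± 0.13 (SE, 2.13-fold, limma adjusted p = 0.00992). The control spread was 0.01 (SD, n = 3) and that of Atg5f/f;Vav 0.21 (SD, n = 3). Another probe, which the design assigns to a cDNA record and not to the RefSeq transcript, rose by 1.46 (limma adjusted p = 0.0146).

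The loading genes differed in size. *Tap1*, a subunit of the peptide transporter (chr17:34334022-34334081 of mm9, + strand), read 2.16, 2.27 and 2.50 in control and 3.83, 4.06 and 4.50 in Atg5f/f;Vav, a rise of 1.82 ± 0.19 (SE, 3.53-fold, limma adjusted p = 0.00785). A dimmer *Tap1* probe further upstream rose by 2.35 (limma adjusted p = 0.00514). *Tap2*, the other subunit (chr17:34353116-34353175, + strand), had the smallest rise of the members.

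The *Tap2* values were 3.81, 3.90 and 4.27 in control and 4.40, 4.65 and 4.89 in Atg5f/f;Vav, so that the highest control and the lowest Atg5f/f;Vav array were only 0.13 apart. The rise was 0.65 ± 0.18 (SE, 1.57-fold, limma adjusted p = 0.0325). It no longer passed with quantile normalisation (0.31, adjusted p = 0.139), with the percentile taken over detected probes (0.45, adjusted p = 0.0578), without the filter on dim probes (adjusted p = 0.0771), or with any 1 array but control 3 or Atg5f/f;Vav 1 left out (adjusted p 0.0604 to 0.112). A probe at base 54 of the *Tap2* transcript was not well above background on any array and was not tested.

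*Tapbp* encodes tapasin, which bridges the transporter and the empty class I molecule. It read 3.64, 3.65 and 3.78 in control and 4.59, 5.05 and 5.65 in Atg5f/f;Vav (chr17:34066022-34066081 of mm9, + strand), a rise of 1.41 ± 0.25 (SE, 2.65-fold, limma adjusted p = 0.016). Its Atg5f/f;Vav arrays were the most spread of any member (SD 0.53, n = 3). A dimmer probe rose by 1.10 (limma adjusted p = 0.0145).

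The immunoproteasome subunits rose alike. *Psmb8*, which replaces *Psmb5*, and *Psmb9*, which replaces *Psmb6*, were read by the following probes, printed because the values given next rest on them.
Psmb8 probe, chr17:34337771-34337830 of mm9, + strand: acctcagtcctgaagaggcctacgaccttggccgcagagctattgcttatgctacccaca
Psmb9 probe, chr17:34319174-34319233 of mm9, - strand: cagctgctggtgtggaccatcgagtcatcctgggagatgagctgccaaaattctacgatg

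*Psmb8* read 3.41, 3.30 and 3.54 in control and 4.49, 4.54 and 4.82 in Atg5f/f;Vav, a rise of 1.20 ± 0.13 (SE, 2.30-fold, limma adjusted p = 0.00864). *Psmb9* read 3.31, 3.25 and 3.51 against 4.68, 4.87 and 5.25, a rise of 1.58 ± 0.17 (SE, 2.99-fold, limma adjusted p = 0.00805). *Psmb10*, which replaces *Psmb7* (chr8:108459677-108459736, - strand), read 5.13, 5.10 and 5.30 against 6.32, 6.62 and 7.02, a rise of 1.47 ± 0.19 (SE, 2.78-fold, limma adjusted p = 0.0111). In each, control arrays stayed close together and the Atg5f/f;Vav arrays were more spread.

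A much dimmer *Psmb9* probe, designed on another transcript model (chr17:34322762-34322821 of mm9), was the only tested probe of a member that did not pass. It read -3.13, -2.96 and -3.28 in control and -2.89, -2.73 and -2.09 in Atg5f/f;Vav, a difference of 0.55 ± 0.22 (SE, limma adjusted p = 0.0909). The groups did not overlap there either. Of the members' 17 probes, 16 were tested and 15 passed, where 17.3% of all probes tested passed in that direction.

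The ratio of an immunoproteasome subunit to the constitutive subunit it replaces was compared within each array, which leaves scaling out. The level of such a ratio depends on the pair of probes and is not read, only its difference between groups. Log2 *Psmb9* over *Psmb6* was -2.24, -2.31 and -2.23 in control and -1.36, -1.25 and -1.03 in Atg5f/f;Vav, higher by 1.04 ± 0.10 (SE), or 2.06-fold, with the brightest probe of each gene, but by 0.51 with each gene's probes averaged. Log2 *Psmb10* over *Psmb7* was 2.97, 3.05 and 3.03 against 3.50, 3.80 and 3.89, higher by 0.71 ± 0.12 (SE), or 1.64-fold. Log2 *Psmb8* over *Psmb5* was 0.02, 0.02 and 0.08 against 0.58, 0.63 and 0.54, higher by 0.54 ± 0.03 (SE), or 1.45-fold. None of the 3 ratios overlapped between the groups. The exact permutation test (two-sided) gave p = 0.1 for each, the smallest that 3 arrays against 3 can give, and 0.1 after adjustment over the 3 comparisons.

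**Figure D3:**
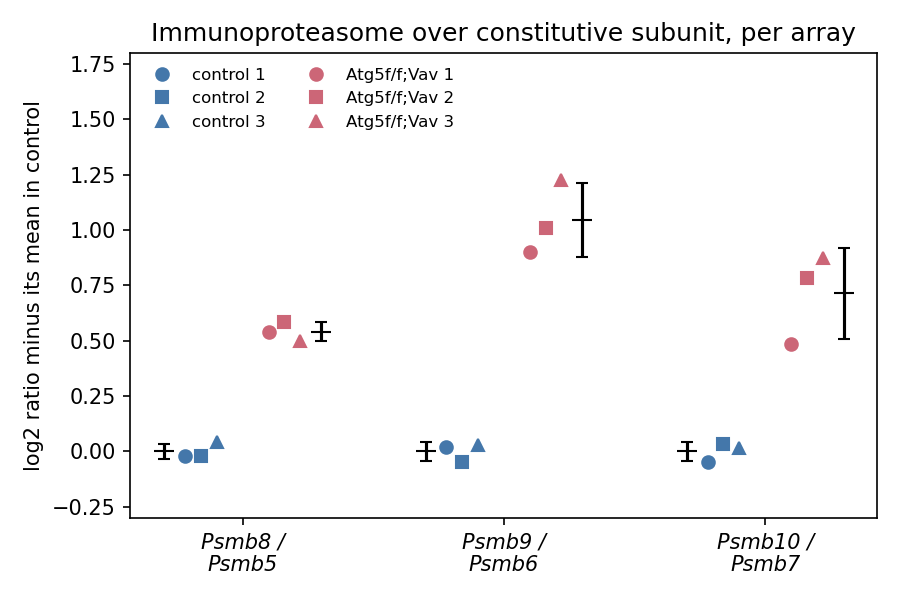
Log2 ratio of each immunoproteasome subunit over its constitutive counterpart on each array, minus the mean ratio in control; black marks are group means with SD over 3 arrays. Each gene is read by its brightest probe, and Atg5f/f;Vav arrays lie above control for all 3 pairs.

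The constitutive subunits were higher as well. *Psmb7* was higher by 0.76 ± 0.13, *Psmb5* by 0.66 ± 0.14 and *Psmb6* by 0.53 ± 0.12 (SE, limma adjusted p 0.0154 to 0.0204). Over the 14 constitutive subunits of the 20S core, the barrel in which proteins are cut, 13 rose and none fell. Of all genes, 21.1% were called higher and 13.5% lower. Their median was 0.68, led by *Psma5* at 0.88, *Psmb3* at 0.80 and *Psma3* at 0.80. *Psmb2* was at -0.01 (limma adjusted p = 0.927) with its brightest probe, which the design assigns to a cDNA record. With each gene's probes averaged, all 14 were called higher, where 18.2% of all genes were. Of the 13, none passed without control 1 or without control 2, fits in which 0.707% and 0.562% of all genes were called higher.

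Of activators and assembly factors, *Psme1*, a subunit of the interferon-inducible PA28 activator, rose by 0.91 ± 0.14 and *Pomp*, which helps to assemble new proteasomes, by 0.59 ± 0.14 (SE, limma adjusted p 0.0145 and 0.0228). *Psme3* and *Psme4*, other activators, were at 0.25 and 0.35 and did not pass (adjusted p 0.165 and 0.102). *Psme2* had no probe of that name.

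Other class I heavy chains, from a list of 30 genes of which 23 were tested, rose in 16 cases and fell in none, with a median of 1.42. Of all genes, 21.1% were called higher and 13.5% lower. The 16 include *H2-L*, whose probe lists the transcript of the member *H2-D1*. *H2-Q5* rose the most, from -0.59, -0.89 and -1.26 in control to 1.92, 2.08 and 2.50 in Atg5f/f;Vav, a rise of 3.08 ± 0.22 (SE, limma adjusted p = 0.00342). *H2-T9* and *H2-T10* rose by 1.63 each, though the *H2-T9* probe lists the *H2-T22* transcript. Of the 7 that did not pass, *H2-Q4* was at -0.33 and *H2-M11* at 0.78 (limma adjusted p = 0.301 and 0.0584), and *Cd1d2*, a lipid-presenting relative, was at -0.31 (limma adjusted p = 0.152). The others were *Cd1d1*, *Mr1*, *Hfe* and *Fcgrt*, which are related to class I but present lipids or vitamin metabolites, or bind iron-transport or antibody partners. These 4 were at -0.45, -0.36, -0.01 and -0.90, and the first 3, like *H2-Q4* and *Cd1d2*, turned positive with arrays centred on spike-in transcripts. A dimmer *Mr1* probe was lower by 0.85 (limma adjusted p = 0.0136).

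Peptide supply and folding, the steps before loading, moved less. Of 18 genes, 12 rose, none fell, and the median was 0.50, where 21.1% of all genes were called higher and 13.5% lower. *Tapbpl*, a tapasin relative that edits peptides, rose by 1.39 ± 0.16, *Lap3*, a cytosolic aminopeptidase, by 1.21 ± 0.24, and *Thop1*, a peptidase that destroys peptides in the cytosol, by 1.10 ± 0.21 (SE, limma adjusted p 0.0091 to 0.0171). The chaperones *Calr* and *Canx*, which hold new heavy chains, rose by 0.74 and 0.71 and *Pdia3*, their partner, was at 0.26 (adjusted p = 0.238). *Erap1*, which trims peptides after transport, rose by 0.64. Of the 12, 1 passed without control 1 and none without control 2, where 0.707% and 0.562% of all genes were called higher.

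**Figure D4:**
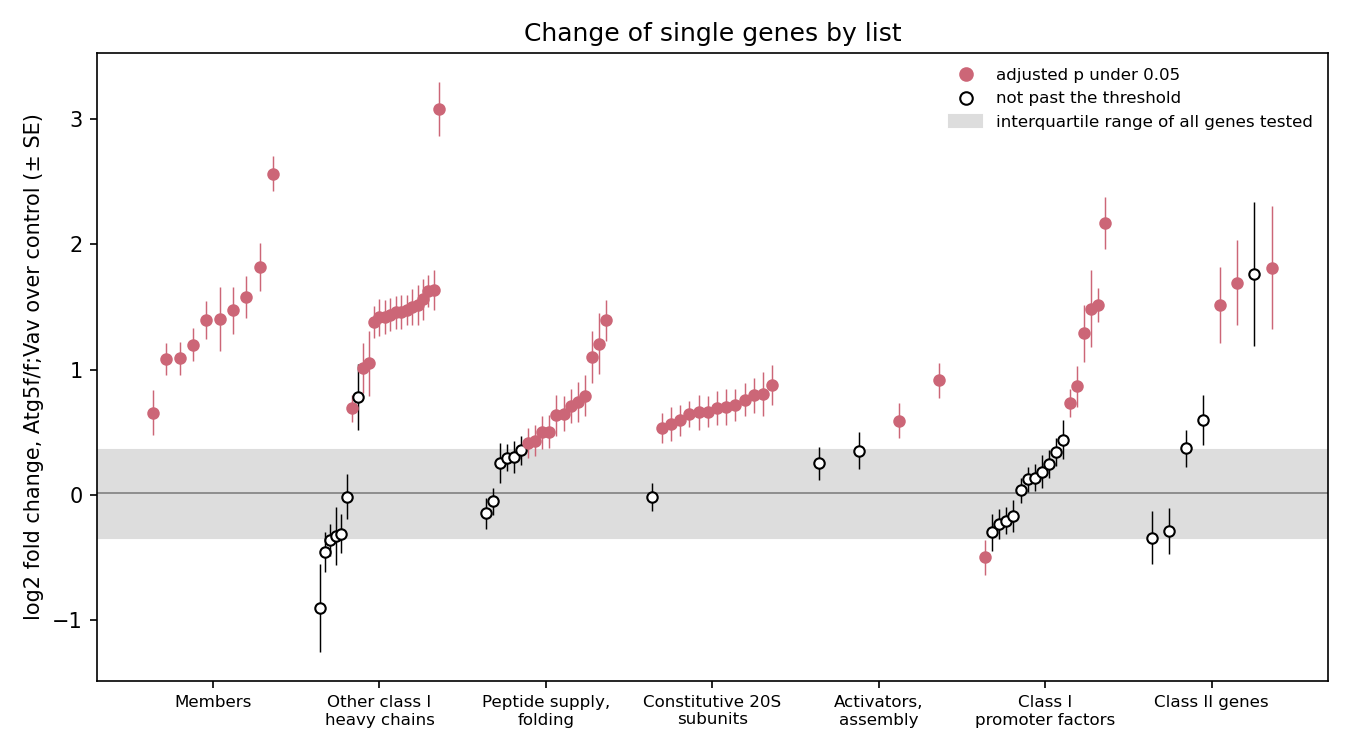
Log2 fold change of Atg5f/f;Vav over control with SE (n = 3 arrays a group) for each tested gene of 7 lists; filled points passed the threshold, and the grey band and line give the interquartile range and median of all 15136 genes. All members but *Tap2* and most other class I heavy chains lie above 1, while the constitutive 20S subunits lie between 0.53 and 0.88 apart from *Psmb2*.

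Factors that act on class I promoters were mixed. Of 18, 6 rose, 1 fell and 11 did not pass, with a median of 0.22. Over all genes, 21.1% were called higher and 13.5% lower. Of the 6, 2 passed without control 1 and 2 without control 2, where 0.707% and 0.562% of all genes were called higher. *Irf1*, an activator of class I genes, read 3.18, 3.07 and 3.35 in control and 4.60, 4.63 and 4.92 in Atg5f/f;Vav, a rise of 1.51 ± 0.14 (SE, limma adjusted p = 0.00547). *Irf7* rose by 2.17 ± 0.21 and *Irf8* by 1.49 ± 0.31 (SE, limma adjusted p 0.00606 and 0.0179). *Irf2*, which can oppose *Irf1*, was lower by 0.50 (limma adjusted p = 0.0357, where 13.5% of all genes were called lower) but at 0.05 with arrays centred on spike-in transcripts.

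The factors that hold NLRC5 on the promoter module did not pass. *Rfx5*, *Rfxap* and *Rfxank* were at -0.17, 0.19 and -0.30, and the NF-Y subunits *Nfya*, *Nfyb* and *Nfyc* at -0.20, 0.14 and 0.34. The κB-binding factors *Rela* and *Nfkb1* were at 0.25 and 0.04. These differences lay between 0.04 and 0.34 in size, with adjusted p from 0.0513 to 0.793, and signs that depended on the scaling for all but *Nfyc*.

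Class II genes, which serve presentation of ingested proteins, were mixed. Of 8, 3 rose past the threshold, where 21.1% of all genes did. They were *H2-Aa* by 1.81 ± 0.49, *Cd74*, the invariant chain, by 1.69 ± 0.34 and *H2-Ab1* by 1.51 ± 0.30 (SE, limma adjusted p 0.0171 to 0.0322). Control arrays were far more spread for these than for the members, since control 1 was more than 1 log2 unit under the other controls. *H2-Aa*, for example, read -3.79, -1.76 and -2.06 in control and -0.58, -0.81 and -0.77 in Atg5f/f;Vav. Of the rest, *H2-Eb1* was at 1.76, *H2-DMa* at 0.60, *H2-DMb1* at 0.37, *H2-Oa* at -0.29 and *H2-Ob* at -0.34 (limma adjusted p 0.053 to 0.245). The median over the 8 was 1.06, and that of all genes 0.02. Without overlap 6 of the 8 were higher and 1 lower, where 33.2% of all genes were higher without overlap. *Ciita*, the class II transactivator, rose by 1.29 ± 0.23 (SE, limma adjusted p = 0.0158).

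The 5 genes whose pattern over the 6 arrays was most like the members' mean were, of 13697 genes detected on all arrays, *Tapbpl*, *Gm8909*, *Gm11127*, *H2-K2* and *Gm8995*. Their centred log2 values differed from the members' mean profile by 0.03 to 0.07 (root mean square), against 0.06 for *Psmb10* and 0.58 for *Nlrc5* among the members themselves. *Tapbpl* was the nearest, at -0.41, -0.46 and -0.24 in control and 0.79, 0.95 and 1.32 in Atg5f/f;Vav. *H2-K2* is also in the list of other class I heavy chains.

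Markers of other cells also differed between the groups, and their part in the results above was not tested. Of 6 erythroid markers, 3 of 5 tested were lower and *Klf1* was higher, by 2.95. Of all genes, 13.5% were called lower and 21.1% higher. The 3 lower erythroid markers were *Slc4a1* at -2.29, *Hba-a1* at -2.26 and *Alas2* at -2.07 (limma adjusted p 0.0136 to 0.0168). The summed erythroid signal was 215 to 489 times the 75th percentile in control and 66.4 to 89.0 times in Atg5f/f;Vav. Of 6 neutrophil markers, 5 were lower, where 13.5% of all genes were, and *Ly6g* was higher by 0.71. The 5 were led by *S100a8* at -1.38, *Ltf* at -1.38 and *S100a9* at -1.34. Neutrophil sums were 77.4 to 161 in control and 37.3 to 66.9 in Atg5f/f;Vav. The sums overlapped between groups for macrophage (30.8 to 42.4 and 22.8 to 31.3), dendritic (137 to 169 and 126 to 152), B cell (8.59 to 10.2 and 7.49 to 11.8) and T and NK cell markers (7.25 to 10.8 and 10.2 to 11.4). Of these 4 lists, only *Cd79a* passed, at 0.95, while *Mrc1*, *Cd209a*, *Xcr1* and *Cd8a* were not well above background on any array.

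Stromal collagen was high on 2 control arrays alone: *Col1a1* read -4.14, 3.23 and 2.95 in control and -5.23, -5.16 and -5.49 in Atg5f/f;Vav, a difference of -5.98. *Col1a2* differed by -3.70 and *Sparc* by -2.59 (limma adjusted p 0.0297 to 0.0447 for the 3). The summed stromal signal was 10.2 to 40.7 in control and 6.84 to 9.61 in Atg5f/f;Vav. Endothelial sums were 0.598 to 0.763 and 0.672 to 0.826, with *Cdh5* not well above background on any array, *Kdr* lower by 1.42 and *Plvap* higher by 0.58 (limma adjusted p = 0.0138 and 0.0294).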

How the data were processed

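LSK cells from 3 control and 3 Atg5f/f;Vav samples were profiled on 1-colour Agilent arrays with 60-base probes placed on mm9. The deposited scanner files hold an intensity per spot, background-corrected by Feature Extraction 12.0.3.1, and its detection flags, with no scaling between arrays. The authors' table holds normalised signal, which was checked to be that intensity divided by the array's 75th percentile (ratio constant within 0.000267%). Here log2 intensity was taken minus the 75th percentile over 59305 non-control spots, without outlier-flagged spots (64 to 81 per array). Saturated spots were absent. A probe entered the test if well above background on 3 or more of the 6 arrays. The test was limma's (version 3.58.1, lmFit and eBayes, two-sided, R 4.3.3), adjusted by Benjamini-Hochberg over 32074 probes, with a threshold of 0.05. A gene is its tested probe of highest mean signal, and gene counts cover names that match a RefSeq symbol or synonym. Arrays give no counting depth, and their number limits the precision. On data simulated for 3 arrays against 3, 48 of the 100 probes given a change of 1 (log2) were called, and 83 of the 100 given a change of 2, with 1 false call among 32066 probes. No other probes were changed there, a far smaller share than was called in the data, and the noise was independent between probes. The simulated counts therefore do not give the sensitivity of the fit used here.

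Groups follow the sample labels. Same-numbered arrays deviated from their group means with correlations of -0.07, 0.19 and 0.11, and differently numbered ones with correlations from -0.30 to 0.13. With 3 arrays a group these values cannot settle whether numbers pair samples, and the main fit took the samples as unpaired. All members are named, with up to 3 rises and 3 falls past the threshold per list, all genes of lists of up to 5, *Irf1* and the 5 genes most like the members; other names were added after their values were seen, and 1 gene that the rule names is not reported here. Members and lists were chosen with earlier results of these data known, so no pattern here is independent support for those results. Alternatives were normexp (offset 50), quantile normalisation, other percentiles and spike-in centring, the deposited signal, other filters, kept outliers, an eBayes trend, the methods' t-test, the replicate block, each array left out and the mean of all probes. Motifs were searched in RefSeq windows of GRCm38.p6, a build other than the probes', with Python 3.11.15. No mm9 gene models were used, so exons and UTRs are not assigned to probes.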

Additional observations from a re-analysis of the deposited data

How the results depend on the processing

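Every member stayed higher in Atg5f/f;Vav under each alternative run. Centring on spike-in transcripts moved the median of all genes from 0.02 to 0.57, and quantile normalisation left it near 0. The members' median was then 1.95 and 1.05, that is 1.38 and 1.05 above all genes. Against 0.50, the peptide supply median was 0.19 with quantile normalisation, 0.30 with the percentile over detected probes and 1.05 with spike-in centring. Against 0.68, that of the 20S core was 0.34, 0.47 and 1.23. Against 0.22, that of the promoter factors was 0.11, 0.01 and 0.76. With quantile normalisation 9 members, 7 peptide supply genes and 5 of the 20S subunits passed, where 14.9% of all genes were called higher. With the percentile over detected probes 9 members and 7 peptide supply genes passed, the median of all genes was -0.19, and the split of all calls turned from 3198 higher and 2048 lower to 1924 and 3992. With spike-in centring that split was 2454 and 247. Without the filter on dim probes 9 members and 6 peptide supply genes passed, of 1231 genes higher and 573 lower, and the *Atg5* difference of 0.54 did not pass (limma adjusted p = 0.0567).

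By the methods' t-test all 10 members passed without adjustment and 0 after Benjamini-Hochberg adjustment (adjusted p 0.0506 to 0.0902). Of all 15136 genes, 0 passed that adjusted test in either direction, so the members' 0 is not particular to them. After that adjustment the *Atg5* difference of 0.54 did not pass, and 0 genes of the heavy chain, peptide supply, 20S and promoter factor lists did. With the replicate block 20.3% of all genes were called higher. All 10 members passed there (median 1.40), 10 peptide supply genes did against 12, and no other list or subunit count changed. The exact sign-flip p for each subunit ratio was 0.25, the smallest that 3 pairs allow.

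With each array left out in turn, 0.562% to 18.6% of all genes were called higher, the share being lowest without control 1 or 2. In these fits 4 to 10 members passed and their median was 1.20 to 1.54. Counts were 13 to 16 for other heavy chains, 0 to 11 for peptide supply, 0 to 13 for the 20S core and 2 to 6 for promoter factors, each lowest without control 1 or 2. The *Atg5* difference was 0.45 to 0.60. The subunit ratios differed by 0.52 to 0.56 for *Psmb8*, 0.95 to 1.12 for *Psmb9* and 0.63 to 0.83 for *Psmb10*. With each gene's probes averaged, the *Psmb9* ratio differed by 0.51, less than the other 2. Apart from *Tap2*, no member lost its call under any setting other than the t-test and the removal of control 1 or 2. A slide or scan block was not run because all arrays shared 1 slide and 1 scan. Signal close to background limits dim probes, such as the dimmer ones of *Psmb9* and *Nlrc5*.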
